A study of Mus musculus with 8 samples.

Results

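The 10 genes described here encode proteins of the piRNA pathway: Piwil1, Piwil2, Piwil4, Tdrd1, Tdrd6, Tdrd7, Mael, Mov10l1, Fkbp6 and Prmt5. They were chosen by name, through the gene name that the array files give each probe, with earlier results of these data known. The arrays carried 14 probes for them, and all 10 genes were among the 17593 gene names measured above background. The study asked which messenger RNAs are held by Dazl, a germ cell protein that binds RNA, in mouse testes at postnatal day 14. Mice were males of a mixed C57BL/6 and 129SV background, and all groups came from testis cells labelled as germ cells expressing Dazl-GFP-V5, a fusion of Dazl with both tags. The labels do not name the promoter that drives the fusion, and they give no untagged animals, so that the input and the mock precipitate carry the fusion too. The 4 groups of 2 arrays each were RNA precipitated with an antibody against V5, RNA precipitated with an antibody against GFP, a mock precipitate with normal mouse IgG, and the input total RNA. Lysates were not crosslinked.

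piRNAs are small RNAs of the germ line that guide Piwi proteins to transposon transcripts and, at the pachytene stage of meiosis, derive from long precursors of other sequence. Piwi proteins carry arginines that Prmt5 dimethylates symmetrically, and Tudor domain proteins dock on these modified arginines. The proteins gather in perinuclear granules and between mitochondria of spermatocytes, the nuage, where precursors are cut and loaded. Male mice lacking most of these proteins are sterile. The values below are amounts of the genes' messenger RNAs in each precipitate, not of the proteins.

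Between 57.2% and 62.2% of the 43379 non-control spots per array were well above background, with 0 saturated. Signals are given as multiples of the array's 75th percentile, which lay between 857 and 1115, and they compare arrays for a gene, not genes with each other. The V5 and GFP arrays shared one slide and scan and the IgG and input arrays another, so that V5 or GFP against IgG or input cannot be told apart from slide, while V5 against GFP and IgG against input lie within a slide. In the series' own text the second antibody is one against PABP1, in the samples' labels one against GFP, and the descriptions of V5 replicate 1 and of input replicate 2 each name the other kind of RNA. Nothing says that the replicates came from separate animals, so the p-values measure only the spread between arrays. Dazl messenger RNA itself read 7.16 and 6.53 on the V5 arrays, 10.4 and 9.11 on the GFP arrays, 4.02 and 2.99 on the IgG arrays, and 14.2 and 15.0 on the input arrays, a log2 fold change against IgG of 0.98 in V5 and 1.49 in GFP (adjusted p = 0.00405 and 0.000369). Of 27 markers of Sertoli, Leydig, peritubular myoid, leukocyte and endothelial cells, 0 were higher and 24 lower in V5 than in IgG. There 16.7% of all genes were higher and 40.3% lower. In GFP 0 of these markers were higher and 26 lower than in IgG, where 21.6% of all genes were higher and 52.1% lower. Their summed level was 212 to 216 in V5, 178 to 193 in GFP, 285 to 296 in IgG and 347 to 349 in input, and all 27 lay above background in the input, although the labels call the cells germ cells. Sertoli markers made up most of this sum, 220 to 222 in IgG and 238 to 243 in input. Leydig and endothelial markers summed higher in IgG (26.45 to 28.6 and 1.66 to 1.80) than in input (24.7 to 25.3 and 1.29 to 1.37). In IgG against input 10 of the 27 were higher and 10 lower, where 43.9% of all genes were higher and 29.3% lower. The summed level of 7 germ cell markers was 86.6 to 86.7 in V5, 104 to 118 in GFP, 48.5 to 52.4 in IgG and 126 to 127 in input. The part of these markers in the results below was not tested. In a precipitate a marker's level is the amount of that RNA held there, on the scale used, and it does not measure the number of cells of a type.

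**Figure D1:**
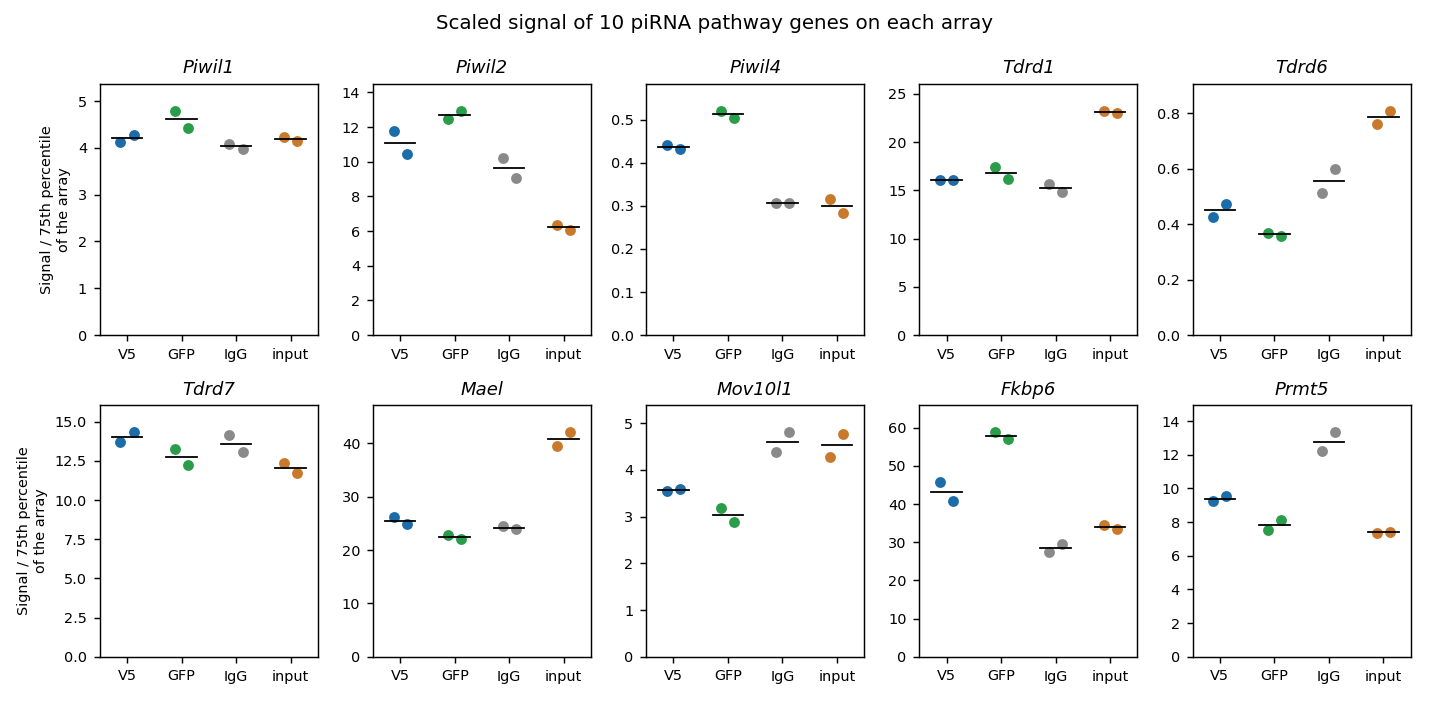
Scaled signal of the 10 genes on each of the 8 arrays (points, y axis, in multiples of the array's 75th percentile), with bars at the mean of the 2 arrays of the V5, GFP, IgG and input groups. Fkbp6 is highest on the GFP arrays at 58.8 and 57.1, and Mael is highest on the input arrays at 39.5 and 42.0.

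Against the mock precipitate, the messenger RNAs of the pathway did not move one way. Fkbp6 and Piwil4 were higher with both antibodies, Piwil1 and Piwil2 passed the test with GFP, and Prmt5, Mov10l1 and Tdrd6 were lower with both. Under spike-in scaling only Prmt5 in GFP remained lower (-0.23, adjusted p = 0.0338): in V5 Prmt5 was at -0.076, Tdrd6 at 0.064 and Mov10l1 at 0.0038 (adjusted p = 0.432, 0.661 and 0.981), and in GFP Tdrd6 was at -0.13 and Mov10l1 at -0.12 (adjusted p = 0.33 and 0.355). Under median scaling 0 members were lower in V5, Prmt5 being at -0.18 (adjusted p = 0.136). Tdrd1, Tdrd7 and Mael passed it with neither on the probe used, but the dimmer Tdrd1 probe passed it with GFP, and all 3 genes did with both antibodies under spike-in scaling. In V5 against IgG, 2 members were higher and 3 lower at an adjusted p of 0.05, where 57% of all genes passed, 16.7% higher and 40.3% lower. In GFP against IgG, 4 were higher and 3 lower, where 73.7% of all genes passed, 21.6% higher and 52.1% lower. The median log2 fold change of the 10 genes was 0.07 in V5 and 0.03 in GFP, against -0.21 and -0.32 over all genes. The arrays of the groups did not overlap for 9 of the 10 genes in V5 against IgG, as for 80.1% of all genes, nor for 9 in GFP against IgG, as for 86.4%. Without V5 replicate 1 and input replicate 2, the arrays of conflicting descriptions, 0 members and 693 of 18071 genes passed in V5 against IgG: Fkbp6 was at 0.52 (adjusted p = 0.0684), Piwil4 at 0.50 (adjusted p = 0.0664) and Prmt5 at -0.42 (adjusted p = 0.089). In GFP against IgG 6 members and 11480 genes then passed. With normexp, another background correction, 0 of all 17593 genes passed in V5 against IgG (limma; 3702 at an unadjusted p under 0.05), and in GFP against IgG Fkbp6, Piwil4 and Prmt5 did, with 3244 genes in all. Both comparisons share the IgG arrays.

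**Figure D2:**
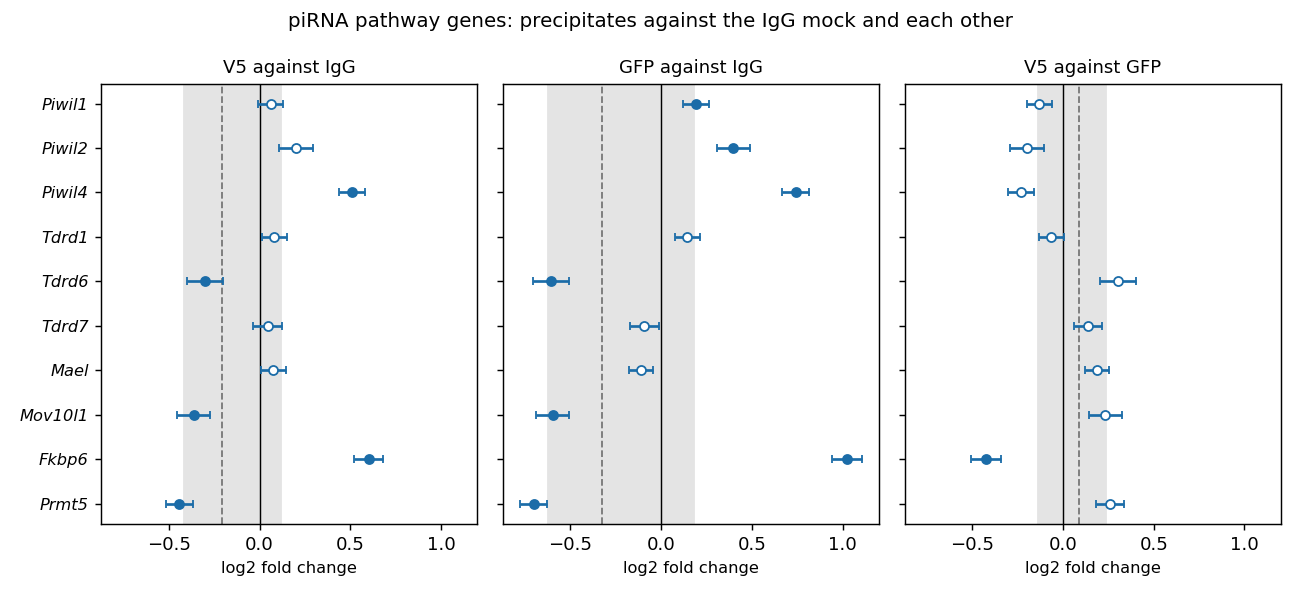
Log2 fold change of each gene in V5 against IgG, in GFP against IgG and in V5 against GFP (points, with SE; filled where the adjusted p is under 0.05), beside the median of all 17593 genes (dashed line) and their range from the 25th to the 75th percentile (grey). Against IgG, Fkbp6 lies farthest to the right, at 0.60 in V5 and 1.02 in GFP, and Prmt5 farthest to the left, at -0.44 and -0.70.

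Among the Piwi proteins, Piwil4, which in fetal germ cells enters the nucleus and directs methylation of transposons, was higher with both antibodies. Its probe read 0.441 and 0.433 on the V5 arrays, 0.521 and 0.504 on the GFP arrays, 0.307 and 0.306 on the IgG arrays, and 0.315 and 0.284 on the input arrays. All 4 antibody arrays lay above all 4 others, and IgG and input overlapped. The log2 fold change was 0.51 ± 0.073 in V5 against IgG (SE, n = 2 each, adjusted p = 0.00338) and 0.74 ± 0.073 in GFP against IgG (adjusted p = 0.00035). Against input it was 0.54 in V5 (adjusted p = 0.000614) and 0.77 in GFP (adjusted p = 0.000111), while IgG against input was 0.03 (adjusted p = 0.683). With spike-in scaling V5 against input was 0.12 (adjusted p = 0.222), GFP against input 0.46 (adjusted p = 0.00209) and IgG against input -0.76. A second Piwil4 probe was not well above background on any of the 8 arrays and was left out. The values above thus rest on the other probe alone, and neither probe was matched to a RefSeq transcript.

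Piwil2, which binds piRNAs from fetal life to the round spermatid stage, was lowest in the input and higher in every precipitate, the mock included, except that IgG against input was -0.16 with spike-in scaling. It read 11.8 and 10.4 in V5, 12.5 and 12.95 in GFP, 10.2 and 9.09 in IgG, and 6.35 and 6.08 in input. Against input the log2 fold change was 0.83 ± 0.092 in V5, 1.03 in GFP and 0.63 in IgG (adjusted p = 0.000255, 8.86e-05 and 0.000802). Over the mock it was 0.20 in V5 (adjusted p = 0.103) and 0.40 in GFP (adjusted p = 0.00762). The groups did not overlap and ran from input at the bottom through IgG and V5 to GFP at the top.

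Piwil1, which binds the pachytene piRNAs of spermatocytes and spermatids, differed little between groups. It read 4.14 and 4.28 in V5, 4.80 and 4.43 in GFP, 4.09 and 3.98 in IgG, and 4.22 and 4.14 in input. On that scale only GFP against IgG passed the test, at a log2 fold change of 0.19 ± 0.069 (adjusted p = 0.0419). Leaving out any of the 8 arrays ended that call, with an adjusted p of 0.0506 to 0.23. With spike-in scaling V5 and GFP against IgG were at 0.43 and 0.67 (adjusted p = 0.00872 and 0.00086). V5, GFP and IgG against input were then at -0.42, -0.18 and -0.84 (adjusted p = 0.0044, 0.104 and 0.000133). With median scaling V5 and GFP were at 0.32 and 0.48 against IgG (adjusted p = 0.0108 and 0.00129). Against input they were also at 0.32 and 0.48 (adjusted p = 0.00438 and 0.000598).

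The Tudor proteins differed from each other. Tdrd1, which binds Piwil2 in the cement between mitochondria, read 16.1 on each V5 array, 17.5 and 16.2 in GFP, 15.6 and 14.8 in IgG, and 23.3 and 23.0 in input. The input arrays stood above all 6 precipitates, which lay close together. Every precipitate was lower than input, by a log2 fold change of -0.52 ± 0.069 in V5, -0.46 in GFP and -0.60 in IgG (adjusted p = 0.000554, 0.000946 and 0.00025). Over the mock the values were 0.08 in V5 and 0.14 in GFP (adjusted p = 0.345 and 0.0977). In GFP against IgG the value was 0.20 with the mean of its probes, 0.27 with quantile normalization and 0.62 with spike-in scaling (adjusted p = 0.0301, 0.0177 and 0.00113). Against input the GFP call ended with median scaling, at -0.12 (adjusted p = 0.172). With normexp the V5 and GFP calls against input ended, at -0.71 and -0.63 (adjusted p = 0.05002 and 0.0671).

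Tdrd6, a protein of the chromatoid body of spermatids, was lower in all 3 precipitates than in input. It read 0.427 and 0.473 in V5, 0.369 and 0.359 in GFP, 0.512 and 0.599 in IgG, and 0.763 and 0.810 in input. The 4 groups did not overlap and ran from GFP at the bottom through V5 and IgG to input at the top. Against input the log2 fold change was -0.81 ± 0.099 in V5, -1.11 in GFP and -0.51 in IgG (adjusted p = 0.000398, 8.58e-05 and 0.00323). In GFP against IgG it was -0.61 (adjusted p = 0.00175). In V5 against IgG it was -0.30 (adjusted p = 0.0383), a call that ended without any 1 of 7 of the 8 arrays (range -0.41 to -0.19); it was kept only without IgG replicate 1.

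Tdrd7, a chromatoid body protein that is also needed in the lens, read 13.7 and 14.3 in V5, 13.3 and 12.3 in GFP, 14.1 and 13.1 in IgG, and 12.4 and 11.7 in input. The groups overlapped except that V5 and IgG lay above input and V5 above GFP. Its one call, in V5 against input (log2 fold change 0.22 ± 0.079, adjusted p = 0.0413), ended without any 1 of 6 arrays; it was kept without either IgG array. It also ended with quantile normalization (0.075, adjusted p = 0.484), without the arrays of conflicting descriptions (0.21, adjusted p = 0.267) and with spike-in scaling (-0.21). With median scaling V5, GFP and IgG against input were at 0.53, 0.42 and 0.22 (adjusted p = 0.000851, 0.00257 and 0.0393). With spike-in scaling IgG against input was at -0.62 (adjusted p = 0.00104).

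Fkbp6, a co-chaperone of the immunophilin family that male meiosis and piRNA loading require, had the largest rise over the mock among the 10 genes. Its brighter probe read 45.8 and 40.8 in V5, 58.8 and 57.1 in GFP, 27.6 and 29.5 in IgG, and 34.4 and 33.6 in input. No groups overlapped, with GFP highest and IgG lowest. Against IgG this was 1.52-fold in V5 (log2 fold change 0.60 ± 0.081, adjusted p = 0.00296) and 2.03-fold in GFP (1.02, adjusted p = 0.000199). In these comparisons 91.8% and 93.4% of all genes had a lower fold change. Against input the log2 fold change was 0.35 in V5, 0.77 in GFP and -0.25 in IgG (adjusted p = 0.00776, 0.000185 and 0.0266); the last ended without IgG replicate 1 or either input array. Leaving out 1 array moved the GFP value against IgG only between 0.98 and 1.07.

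Mael, a nuage protein with an HMG-like domain, was higher in input than in the precipitates, which lay close together. It read 26.1 and 24.9 in V5, 22.7 and 22.0 in GFP, 24.5 and 23.9 in IgG, and 39.5 and 42.0 in input. Against input the log2 fold change was -0.68 ± 0.068 in V5, -0.87 in GFP and -0.75 in IgG (adjusted p = 0.000166, 5.08e-05 and 8.49e-05). Over the mock it was 0.08 in V5 and -0.11 in GFP (adjusted p = 0.359 and 0.175).

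Mov10l1, the RNA helicase that binds piRNA precursors, was lower with either antibody than in IgG or input. Its brighter probe read 3.55 and 3.59 in V5, 3.19 and 2.89 in GFP, 4.39 and 4.81 in IgG, and 4.29 and 4.78 in input. IgG and input overlapped and all 4 antibody arrays lay below them. Against IgG the log2 fold change was -0.36 ± 0.091 in V5 (adjusted p = 0.0162) and -0.60 in GFP (adjusted p = 0.00135), and against input -0.34 and -0.58 (adjusted p = 0.0133 and 0.00123). The V5 call against IgG ended without IgG replicate 2 or either V5 array, at -0.43 to -0.30 over all arrays left out, and the V5 call against input ended without input replicate 2 or either V5 array. With median scaling V5 was at -0.099 against IgG and -0.027 against input (adjusted p = 0.378 and 0.779). GFP was then at -0.31 and -0.23 (adjusted p = 0.0177 and 0.0361). With spike-in scaling V5 and GFP were at 0.0038 and -0.12 against IgG (adjusted p = 0.981 and 0.355). Against input they were then at -0.77 and -0.89 (adjusted p = 0.000561 and 0.000257).

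Prmt5, the arginine methyltransferase, is made in many cell types and is not particular to germ cells. It read 9.24 and 9.53 in V5, 7.56 and 8.12 in GFP, 12.2 and 13.3 in IgG, and 7.37 and 7.44 in input. The mock stood highest, and all 6 precipitates lay above the input arrays. In IgG against input the log2 fold change was 0.78 ± 0.075 (adjusted p = 0.000113), against 0.34 in V5 (adjusted p = 0.0059) and 0.08 in GFP (adjusted p = 0.351) over the same input. With spike-in scaling IgG against input was -0.0075, and V5 against input -0.084. Against IgG it was -0.44 in V5 and -0.70 in GFP (adjusted p = 0.00526 and 0.000431), the lowest of the 10 genes in both.

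Set against input, 5 members were higher and 4 lower in V5, where 73.2% of all genes passed, 37.7% higher and 35.5% lower. In GFP 3 were higher and 4 lower, where 75.2% passed, 36.2% higher and 39.1% lower. Without the arrays of conflicting descriptions 5 members passed in V5 against input, as did 8947 of 18053 genes, and Fkbp6, Prmt5, Mov10l1 and Tdrd7 there did not (adjusted p = 0.174, 0.0906, 0.216 and 0.267). In the mock 2 were higher and 4 lower, where 73.2% of all genes passed, 43.9% higher and 29.3% lower. The median log2 fold change of the 10 genes was 0.11 in V5, 0.08 in GFP and -0.02 in IgG, against 0.01, -0.06 and 0.22 over all genes. Tdrd1, Tdrd6 and Mael were lower and Piwil2 was higher in all 3 precipitates than in input, Piwil2 in IgG only without the spike-in scale. With median scaling Tdrd1 did not pass in GFP. With normexp Tdrd1 did not pass in V5 or GFP, and Tdrd6 and Piwil2 did not in V5 or IgG. The arrays did not overlap for 9 genes in V5 against input, 9 in GFP against input and 8 in IgG against input, as for 89.6%, 90.2% and 87.2% of all genes. All 3 comparisons share the input arrays.

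**Figure D3:**
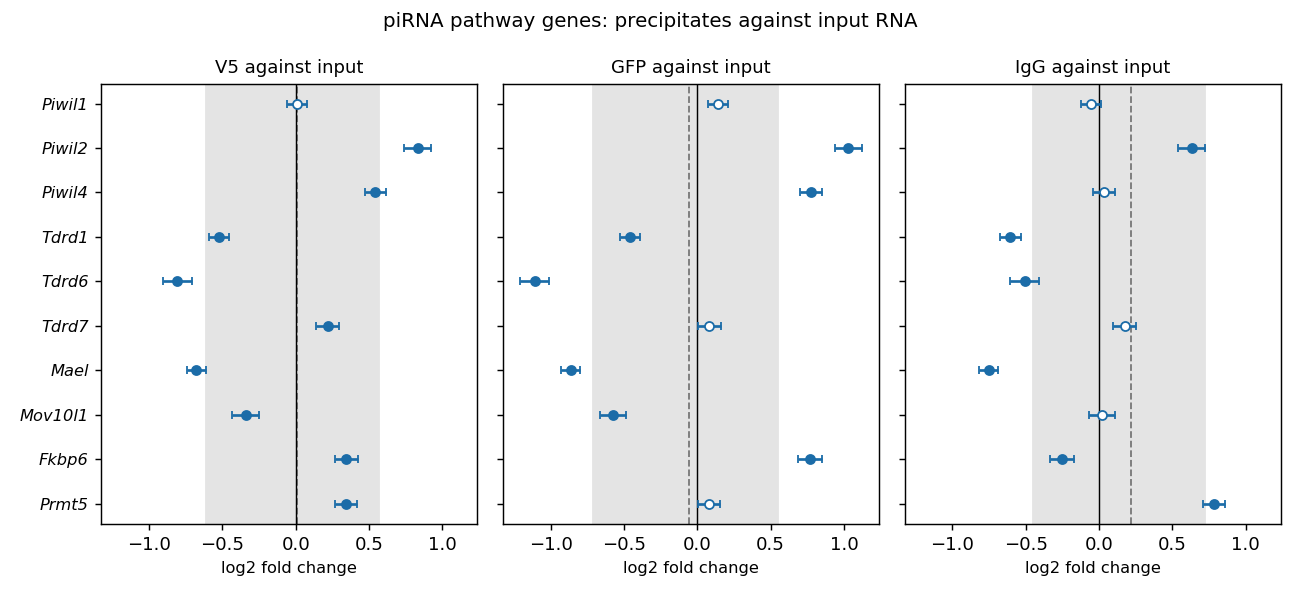
Log2 fold change of each gene in V5, GFP and IgG against input (points, with SE; filled where the adjusted p is under 0.05), beside the median (dashed) and the range from the 25th to the 75th percentile (grey) of all genes. Tdrd1, Tdrd6 and Mael lie left of zero and Piwil2 right of zero in all 3 panels, and Prmt5 lies farthest right in the IgG panel at 0.78. With spike-in scaling, Piwil1, Tdrd7, Fkbp6 and Prmt5 in V5, Piwil1, Tdrd7 and Prmt5 in GFP, and Piwil2, Piwil4, Tdrd7, Mov10l1 and Prmt5 in IgG cross zero.

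V5 and GFP lie on one slide, and by the samples' labels both antibodies are against tags of the fusion. Here Fkbp6 alone of the 10 genes passed the test, where 13.9% of all genes did, 6.76% higher and 7.17% lower. Its log2 fold change of V5 against GFP was -0.42 ± 0.081 (adjusted p = 0.0326), and the call ended without any 1 of the 6 V5, GFP and input arrays. The next were Prmt5 at 0.26 (adjusted p = 0.0617), Piwil4 at -0.23 (adjusted p = 0.0744) and Tdrd6 at 0.30 (adjusted p = 0.0783). All 10 genes had arrays that did not overlap between V5 and GFP, as 71.2% of all genes did. The genes higher in GFP than in V5 as values were Fkbp6, Piwil1, Piwil2, Piwil4 and Tdrd1, and the other 5 were lower in GFP than in V5. In this comparison 0 somatic markers were lower and 4 of 27 higher in V5.

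The direction of some of these changes depended on how arrays were scaled. With median scaling, chosen after seeing the data, the median of all genes was 0.06 in V5 against IgG and -0.03 in GFP against IgG. Of the calls 75.5% and 52.6% were then higher, against 29.3% in each with the 75th percentile. In V5 against IgG 7 members were then higher and 0 lower, as were 4849 and 1571 of 17593 genes. In GFP against IgG 5 members were higher and 3 lower, as were 5421 and 4891 genes. The signals of 7 spike-in probes, an outside standard, put the median of all genes at 0.16 instead of -0.21 in V5 against IgG, at 0.15 instead of -0.32 in GFP against IgG, and at -0.57 instead of 0.22 in IgG against input. The share of calls that were higher was then 87.4% in place of 29.3% in V5 against IgG, 76% in place of 29.3% in GFP against IgG, and 18% in place of 60% in IgG against input. It was 26.7% in place of 51.4% in V5 against input, 31.2% in place of 48.1% in GFP against input, and 10.2% in place of 48.5% in V5 against GFP. On the spike-in scale Tdrd6 and Mov10l1 turned sign in V5 against IgG, Tdrd7 and Mael were at 0.38 and 0.36 in GFP against IgG, and Fkbp6 was at -0.079 in V5 against input. On that scale 7 members were higher and 0 lower in V5 against IgG, where 6269 of 17593 genes were higher and 907 lower. In GFP against IgG 7 members were higher and 1 lower, where 6882 genes were higher and 2172 lower. Relative to the median of all genes, in both comparisons with IgG the same 7 members lay above that median and Tdrd6, Mov10l1 and Prmt5 below it, under the 75th percentile and each of the 19 other settings. Fkbp6 lay 0.58 to 0.88 above it in V5 and 1.11 to 1.40 in GFP, and Prmt5 at -0.39 to -0.18 relative to it in V5. Tdrd6 came as near to it as -0.0055 in V5.

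**Figure D4:**
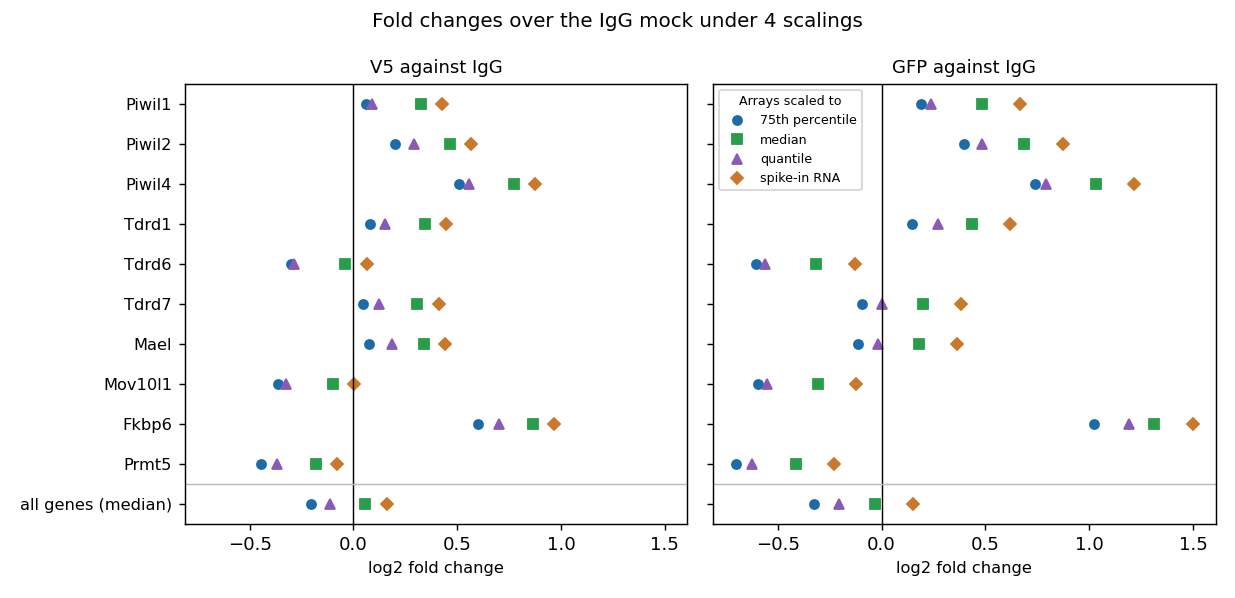
Log2 fold change of each gene against IgG (x axis) in V5 and in GFP with arrays scaled in 4 ways (symbols), and the median of all genes under each in the lowest row. Tdrd6 and Mov10l1 cross zero in V5 against IgG under spike-in scaling, at 0.064 and 0.0038, and Fkbp6 stays to the right of zero.

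Fkbp6, Mov10l1 and Tdrd1 each had a second, dimmer probe above background on all 8 arrays. Over the mock the probes of a gene had the same sign in both comparisons: Fkbp6 at 0.60 and 0.37 in V5 and 1.02 and 0.72 in GFP, Mov10l1 at -0.36 and -0.16 in V5 and -0.60 and -0.29 in GFP, and Tdrd1 at 0.08 and 0.03 in V5 and 0.14 and 0.26 in GFP, brighter probe first. In GFP the dimmer Tdrd1 probe passed (adjusted p = 0.0125) and the brighter did not (adjusted p = 0.109), where 70.4% of kept probes passed. The dimmer Mov10l1 probe did not pass the test over all kept probes in V5 (adjusted p = 0.193), where 53.4% of them passed. Against input both Tdrd1 probes were lower and passed in every precipitate, by differing amounts. Both Mov10l1 probes were lower and passed in V5 (-0.34 and -0.73) and in GFP (-0.58 and -0.86). The sign differed between probes for Mov10l1 in IgG and for Fkbp6 in V5. The brighter Fkbp6 probe was at 0.35 in V5 against input (adjusted p = 0.00885 over all kept probes) and the dimmer one, which read 15.1 and 13.6 in V5 and 16.2 and 18.0 in input, at -0.26 (adjusted p = 0.0432), where 72.4% of kept probes passed. In GFP against input they were at 0.77 and 0.10 (adjusted p = 0.000225 and 0.372), so that call rests on the brighter probe. Tdrd1 was at -0.60 on its brighter and -1.57 on its dimmer probe in IgG against input, and Mov10l1 at 0.02 and -0.57. The sign of Fkbp6 in V5 against input thus differed between probes, and over the mock both probes passed the test (adjusted p = 0.0177 for the dimmer one in V5 and 0.000845 in GFP).

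**Figure D5:**
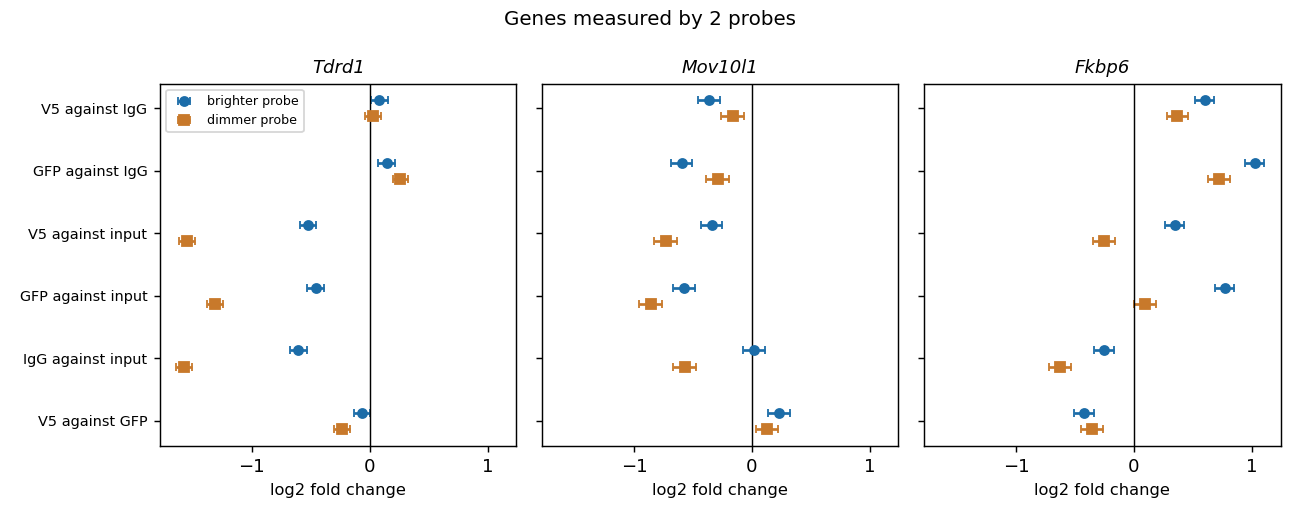
Log2 fold change (x axis, with SE) of the brighter and the dimmer probe of Tdrd1, Mov10l1 and Fkbp6 in the 6 comparisons. The symbols lie apart in the comparisons with input, as for Tdrd1 in IgG against input at -0.60 and -1.57.

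Of 25 other genes of the pathway, 22 were on the array and 21 were measured. Over the mock 5 were higher and 5 lower in V5, where 16.7% of all genes were higher and 40.3% lower, and 8 higher and 9 lower in GFP, where 21.6% were higher and 52.1% lower. Tex19, which restrains transposons, read 72.5 and 78.1 in V5, 109 and 94.8 in GFP, 43.8 and 45.3 in IgG, and 17.5 and 17.4 in input. Its log2 fold change against IgG was 0.76 ± 0.086 in V5 (adjusted p = 0.00189) and 1.19 in GFP (adjusted p = 0.000155), and against input 2.11 in V5 and 2.54 in GFP. Henmt1, which methylates the 3′ ends of piRNAs, was at 0.57 in V5 against IgG and 0.89 in GFP against IgG (adjusted p = 0.00263 and 0.000221). Asz1, a scaffold on mitochondria, was at 1.13 in V5 against IgG (adjusted p = 0.00579). Against input Asz1 was lower, at -1.54 in V5, -1.14 in GFP and -2.67 in IgG (adjusted p = 0.000515, 0.002 and 4.02e-05). Gpat2, a mitochondrial acyltransferase, was lower than in IgG, at -0.45 in V5 and -0.65 in GFP (adjusted p = 0.00341 and 0.000355). Against input Gpat2 was at 0.13 in V5 and -0.07 in GFP (adjusted p = 0.107 and 0.361). Mov10, the relative of Mov10l1 that other tissues express, was at -0.63 in GFP against IgG (adjusted p = 0.000623). Against input Mov10 was higher, at 0.77 in V5, 0.51 in GFP and 1.14 in IgG (adjusted p = 0.000165, 0.000922 and 2.76e-05).

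Against input, 6 of these 21 genes were higher and 10 lower in V5, where 37.7% of all genes were higher and 35.5% lower. In GFP 7 were higher and 12 lower, where 36.2% of all genes were higher and 39.1% lower. In the mock 8 were higher and 10 lower, where 43.9% of all genes were higher and 29.3% lower. In these comparisons 73.2%, 75.2% and 73.2% of all genes passed in either direction. Tex15, needed for transposon silencing, was at -2.46 in V5, -2.78 in GFP and -2.48 in IgG (adjusted p = 8.89e-06, 4.93e-06 and 7.53e-06). Tdrd3, a Tudor protein of many tissues, was at -1.48, -1.70 and -1.43 in the same order (adjusted p = 1.06e-05, 5.12e-06 and 9.32e-06). Tdrkh, a partner in trimming piRNAs, was at -1.82 in V5 and -1.94 in IgG, Morc1, which represses transposons, at -1.85 in GFP, and Stk31 at -2.54 in IgG (adjusted p = 1.22e-05, 9.29e-06, 6.65e-06 and 1.37e-05). In V5 against GFP, 1 was higher and 2 lower, where 13.9% of all genes passed, 6.76% higher and 7.17% lower. These were Morc1 at 0.39, Tex19 at -0.43 and Henmt1 at -0.32 (adjusted p = 0.0337, 0.034 and 0.0413).

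The authors' deposited table gives means of their median-normalized signal for V5, GFP and input, with no IgG column, so it bears on input only. In the authors' deposited table, Fkbp6 was 1.54 times its input in V5 and 2.05 times in GFP on the brighter entry, and 1.01 and 1.31 times on the other. Piwil2 was 2.16 times its input in V5 and 2.54 times in GFP in the authors' deposited table. Also in the authors' deposited table, Prmt5 was at 1.57 and 1.38 times its input, Tdrd7 at 1.42 and 1.29, and Piwil1 at 1.22 and 1.32. Piwil4 was at 1.79 and 2.2 times in the authors' deposited table, on the probe kept here. On the brighter entry of the authors' deposited table, Mov10l1 was at 0.952 and 0.801 times and Tdrd1 at 0.837 and 0.876. On the other they were at 0.735 and 0.715, and at 0.416 and 0.521. Mael was at 0.768 and 0.682 times its input there, in the authors' deposited table, and Tdrd6 at 0.70 and 0.574. The scale of that table's values is not stated beyond their normalization to the median.

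Over the 8 arrays the gene name whose log2 signal ran most like a member's was found among 10639 names. Because the arrays fall into 4 groups, these correlations reflect the group means and are a description of 8 points. For Fkbp6 it was Ppp2r1b, a scaffold subunit of protein phosphatase 2A (Pearson r = 0.996), for Piwil4 Glt28d2 (0.999), for Piwil2 Dip2a (0.995) and for Piwil1 Pctp (0.983). For Tdrd1 it was Rora (0.999), for Tdrd6 Dctn2 (0.998), for Tdrd7 Lgi2 (0.943), for Mael Tmeff2 (0.998), for Mov10l1 Cope (0.993) and for Prmt5 Ipo4 (0.998).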

How the data were processed

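The deposited intensity values are Agilent Feature Extraction 9.1.3.1 processed signals, background-subtracted per the file headers. The authors' deposited table holds signal values normalized to the median in GeneSifter, per the file's comments; its 6 other value columns were not used here. Genome build and probe sequences are not given in the sources used here. The arrays' number limits the precision. From each log2 signal the array's 75th percentile was subtracted. Outlier spots were left out, a probe was kept if well above background on both arrays of any group, and the brightest kept probe represented a gene name. limma 3.58.1 in R 4.3.3 fitted 4 group means over 8 arrays, with Benjamini-Hochberg adjustment over 17593 genes at 0.05, for 6 two-sided comparisons. Every adjusted p comes from limma. The alternatives concerned background correction, scaling, filters, probe choice, the arrays fitted, replicate numbers and arrays left out. The procedure was tested on simulated data. The members and lists were chosen with earlier results of these data known. All 10 members are named. Of the other pathway genes, the up to 4 past the threshold with the smallest p in a comparison are named, as are Dazl and the gene most like each member.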

Additional observations from a re-analysis of the deposited data

How the results depend on the processing

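With 2 arrays a group, small differences rest on little: of 60 tests on the 10 genes 35 were calls, and 28 of these were kept whichever array was left out. All 35 were kept when probes had to lie above background on all 8 arrays. With quantile normalization 34 were kept, with the mean of probes 34, with local background subtraction, an alternative chosen after seeing the data as was median scaling, 34, and with the 2 groups compared alone 31. Without the filter on dim probes 30 were kept, with median scaling 29, with spike-in scaling 24, without the 2 arrays of conflicting descriptions 23 and with normexp background correction 13. The cause was not tested. No slide block was run: each group lies on 1 slide, so the 4 group means already hold the slide, and comparisons within a slide would be as they are.

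With normexp, member calls were 0 in V5 against IgG, 3 in GFP against IgG, 3 in IgG against input, 2 in V5 against input, 5 in GFP against input and 0 in V5 against GFP. Gene calls were 0, 3244, 6272, 5262, 5712 and 0, where limma gave 3702 genes at an unadjusted p under 0.05 in V5 against IgG and 804 in V5 against GFP. Signs turned with normexp for Piwil1 (-0.0051), Tdrd1 (-0.025) and Tdrd7 (-0.0063) in V5 against IgG, Mov10l1 (-0.068) in IgG against input, Piwil1 (-0.14) in V5 against input, and Piwil1 (-0.017) and Tdrd7 (-0.078) in GFP against input. With quantile normalization they turned for Tdrd7 in GFP against IgG (0.0015), IgG against input (-0.048) and GFP against input (-0.046), for Mov10l1 in IgG against input (-0.13), Piwil1 in V5 against input (-0.095) and Prmt5 in GFP against input (-0.058). With the mean of probes Mov10l1 was at -0.27 in IgG against input. With median scaling Tdrd7 and Mael were at 0.20 and 0.18 in GFP against IgG, and 6420 genes passed in V5 against IgG.

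With spike-in scaling the turned values were Tdrd6 0.064 and Mov10l1 0.0038 in V5 against IgG, and Tdrd7 0.38 and Mael 0.36 in GFP against IgG. In IgG against input they were Piwil2 -0.16, Piwil4 -0.76, Tdrd7 -0.62, Mov10l1 -0.77 and Prmt5 -0.0075. In V5 against input they were Piwil1 -0.42, Tdrd7 -0.21, Fkbp6 -0.079 and Prmt5 -0.084, and in GFP against input Piwil1 -0.18, Tdrd7 -0.23 and Prmt5 -0.23. V5 against GFP then had 2 member calls.

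Without the 2 arrays of conflicting descriptions, V5 against IgG had 0 member calls and 693 gene calls (7419 genes at an unadjusted p under 0.05), V5 against input 5 member calls, V5 against GFP 0 and 48, and Piwil4 was at -0.040 in IgG against input. V5 against GFP, with 1 member and 2452 gene calls, gave 0 and 4 without the filter, 2 and 3867 with probes above background on all arrays, 0 and 2 with the 2 groups alone, and 2 and 3770 with local background subtraction. Replicate numbers are shared between groups, but same-numbered arrays did not deviate together (r from -0.0759 to 0.107). With a replicate block V5 against GFP had 0 member and 2 gene calls, and 33 of the 35 calls were kept.

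Leaving out 1 array at a time, member calls ran from 3 to 5 in V5 against IgG and from 0 to 3 in V5 against GFP, and gene calls from 5954 to 10783 and from 3 to 4719. Over the same fits Tdrd7 ran from -0.012 to 0.10 in V5 against IgG, Mov10l1 from -0.057 to 0.099 and Piwil4 from -0.040 to 0.11 in IgG against input, and Piwil1 from -0.017 to 0.033 in V5 against input.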
